A study of Bos taurus with 68 samples.

Results

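The translation factors and tRNA synthetases on a bovine cDNA array were followed in liver across the 7 labelled days around calving. Members were the clones whose gene symbol begins with EIF (initiation factors), EEF (elongation factors), ETF1 or GSPT (termination factors), or is an amino acid letter followed by ARS, ARS1 or ARS2 (the enzymes that charge tRNAs). These symbols found 65 of 5693 listed clones, which named 50 genes. Clones needed values from 3 or more cows on each day to be tested, which kept 62 of the 65 members and 5280 clones in all. The members left out were EIF3B, EIF1AX and 1 of the 2 EIF5 clones. By role the tested clones were 32 for initiation, 6 for elongation, 2 for termination, 17 for synthetases and 5 for kinases that regulate translation factors (EIF2AK1, EIF2AK4 and EEF2K). Roles and subgroups follow the symbols. EIF5A was counted with initiation, EIF4A3 with the EIF4 group, EIF2D with EIF2 and EIF2B, and EEF1E1 with elongation. The 6 elongation clones named 4 genes, the 17 synthetase clones 13 and the 5 kinase clones 3, so clones of 1 gene were counted apart. Symbols from the list of translation genes to be named that found no clone of a single gene (EIF4E, EIF4EBP1, EIF4EBP2, EIF4G1, EIF2AK2, EIF2AK3, EEF1A1, EEF1A2, EEF1G and EPRS1) were not analysed here.

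Total liver RNA came from 5 cows (6934, 6983, 7079, 7186 and 7188) on days -65, -30, -14, 1, 14, 28 and 49 relative to calving. Each cow-day was hybridised to 2 arrays, liver in Cy3 on one and in Cy5 on the other, against a reference standard RNA. The labels name no treatment, breed or age; the groups are days before and after calving. In the larger deposited table, which holds 60 of the 68 arrays and 30 of the 34 cow-days, days -65, -30, 1 and 28 had all 5 cows, days -14 and 14 had 3, and day 49 had 4. Values below are log2 ratios of liver over the reference, averaged over both dye orientations. This direction is only likely, because the numerator of the deposited ratio is not stated: if it ran the other way, every sign below would turn, between days too.

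Translation of an mRNA begins when initiation factors bring the small ribosomal subunit, the initiator tRNA and the capped message together. EIF2 carries the initiator tRNA, EIF2B recharges EIF2 with GTP, EIF3 is the large scaffold on the small subunit, and the EIF4 group binds the cap and unwinds the leader. The elongation factor EEF1 delivers charged tRNAs and EEF2 moves the ribosome along, until ETF1 and GSPT1 release the chain at a stop codon. Synthetases join each amino acid to its tRNA, with separate enzymes for many amino acids in the cytosol and in mitochondria. Phosphorylation of EIF2 by the EIF2AK kinases and of EEF2 by EEF2K slows protein synthesis, and the liver of a cow entering lactation is a major site of secreted protein synthesis and of amino acid use.

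Arrays held 14607 to 16288 measured spots, and their medians, from -0.95 to 0.64, were set to 0 before use. The exchanged arrays of a cow-day should run in opposite directions before the sign is turned. They correlated below 0 in 25 of 30 cow-days and not in 5: day 49 of cows 6934 and 7188, day 14 of cows 6983 and 7186, and day 1 of cow 7079. Among the 25 the correlation ran from -0.53 in cow 6983 to -0.003 in cow 6934, both on day 28. Some pairs therefore barely opposed, and recounts without the 5 cow-days still hold them. Of the hepatocyte markers, transferrin (TF) lay at 3.78 ± 0.29 (SD, n = 5 cows), ASGR2 at 2.46 ± 0.54 and the bile acid transporter SLC10A1 at 3.78 ± 0.38, while APOA1 lay at only 0.06 ± 0.21. Of 12 Kupffer cell marker clones, 12 had lower ratios on day 1 than on day -30, as had 7 of 7 stellate cell and fibroblast clones. Whole liver was sampled, so fewer cells of a type and less RNA per cell cannot be told apart.

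Against the reference, most translation genes lay near 0 or below it. Of 62 tested members, 18 were above the reference (29.0%), where 48.2% of the 5280 tested clones and 2 of 54 clones for cytosolic ribosomal proteins were. None of the 62 was 4-fold or more away from the reference, but only 136 of 5280 clones were, so this does not set the members apart. Within 0.5 of the reference lay 45 members (72.6%), where 75.6% of all tested clones did, so members were no nearer to it. The reference RNA is undescribed, so these ratios say where a clone lies against that RNA, not how abundant its transcript is. Without the 5 cow-days whose arrays did not oppose, 24 members lay above the reference, and a member's level moved by at most 0.11. The share of all tested clones was not recounted there, so whether the members stayed below it cannot be said.

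Among initiation factors the lowest ratios belonged to EIF4G3, a scaffold that joins the cap-binding protein to EIF3, and to EIF4A1, the RNA helicase of the cap complex. EIF4G3 clone AW462371 lay at -1.47 ± 0.15 (SD, n = 5 cows) and its range over cow-days, from -2.93 to -0.53, stayed below 0. The other EIF4G3 clone, AW462767, lay at 0.03 ± 0.33, so the low level holds for 1 clone of this gene. EIF4A1 lay at -1.42 ± 0.23 on clone AW464970, with cow-days from -2.25 to -0.61, and at -0.66 ± 0.16 on clone AW466024. EIF2S2, the beta subunit of EIF2, followed at -0.92 ± 0.30 and -0.68 ± 0.17 on its 2 clones. EIF1 lay at -0.81 ± 0.19 on clone BM366260 and at 0.03 ± 0.27 on clone AW465374. The highest were EIF2B4, a subunit of the exchange factor for EIF2, at 0.52 ± 0.20, EIF3I clone BM365162 at 0.45 ± 0.32 and EIF2D at 0.26 ± 0.09. The EIF3I value joined 1.19 with liver in Cy3 and -0.31 with liver in Cy5, and its other clone, BF046028, lay at 0.003 ± 0.299. EIF5, which triggers GTP hydrolysis by EIF2 at the start codon, lay at 0.25 ± 0.38 and had a wide range over cow-days, from -2.42 to 1.58. EIF2S1, the EIF2 subunit that the EIF2AK kinases phosphorylate, lay at -0.09 ± 0.24, and EIF5A at 0.02 ± 0.30.

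**Figure D1:**
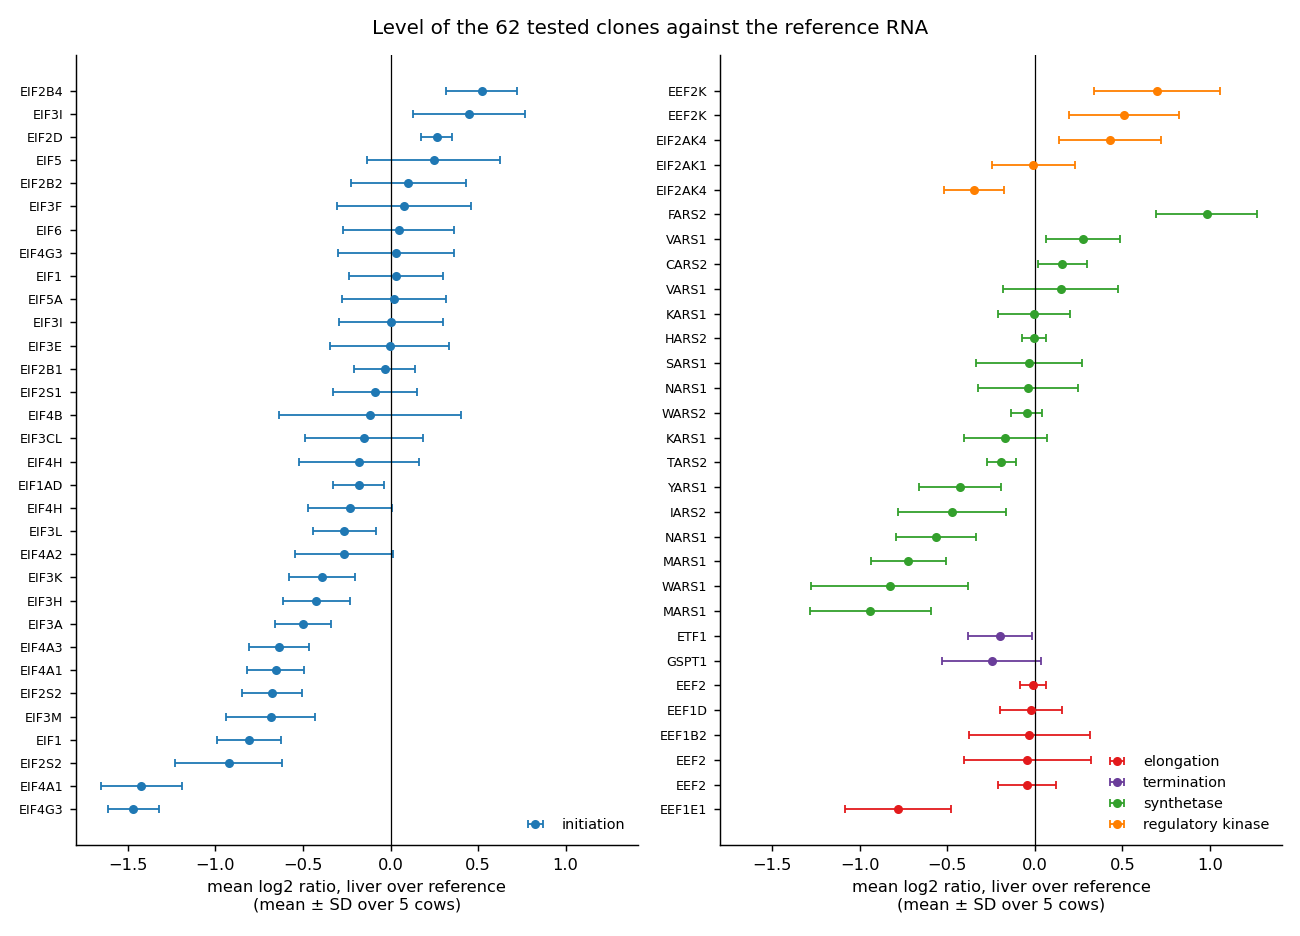
Mean log2 ratio of liver over reference for each of the 62 tested clones (points) with the SD over 5 cows (bars), grouped by role and sorted within each role; a gene with several clones appears several times. EIF4G3 clone AW462371 at -1.47 and EIF4A1 clone AW464970 at -1.42 mark the low end and FARS2 at 0.98 the high end.

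Elongation factors sat together just under 0. The 3 EEF2 clones lay at -0.01 ± 0.07, -0.04 ± 0.36 and -0.05 ± 0.17, and EEF1B2 and EEF1D, subunits of the factor that recharges EEF1A, at -0.03 ± 0.35 and -0.02 ± 0.18. EEF1E1 was the exception at -0.78 ± 0.30; despite its symbol it is a component of the multisynthetase complex. The termination factors ETF1, which reads stop codons, and GSPT1, its GTPase partner, lay at -0.20 ± 0.18 and -0.25 ± 0.28.

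Synthetases spread more widely. The highest was FARS2, the mitochondrial phenylalanine enzyme, at 0.98 ± 0.29, followed by VARS1, the valine enzyme, at 0.27 ± 0.21 and 0.15 ± 0.33 on its 2 clones and by mitochondrial CARS2 at 0.16 ± 0.14. The lowest were MARS1, the cytosolic methionine enzyme, at -0.94 ± 0.35 and -0.72 ± 0.21, and WARS1, the cytosolic tryptophan enzyme, at -0.83 ± 0.45. NARS1, the asparagine enzyme, differed between its clones, at -0.56 ± 0.23 and -0.04 ± 0.29. KARS1, the lysine enzyme, lay at -0.004 ± 0.204 and -0.17 ± 0.24. Of 11 cytosolic clones 2 lay above the reference, and of 6 clones with a mitochondrial name 2 did. Among the kinases EEF2K lay above the reference on both clones, at 0.70 ± 0.36 and 0.51 ± 0.32, while EIF2AK1 lay at -0.01 ± 0.24 and the 2 clones of EIF2AK4, the kinase that senses uncharged tRNA, lay on opposite sides at 0.43 ± 0.29 and -0.35 ± 0.17.

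The sign of a ratio often depended on the dye. For 30 of 62 members the mean over arrays with liver in Cy3 and the mean over arrays with liver in Cy5 lay on opposite sides of 0, as for 2852 of 5280 clones. EIF3E averaged -0.48 in one orientation and 0.46 in the other, and EIF1 clone AW465374 averaged -0.44 and 0.49. Of the 6 elongation clones, 5 were split in this way. The 32 members on the same side in both orientations were below the reference 23 times, EIF4G3 clone AW462371 at -1.47 and -1.47 among them, and above it 9 times, with FARS2 at 1.07 and 0.92.

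How well a clone tracked the same RNA was read from the correlation between its ratios on the exchanged arrays over cow-days. The members' median was 0.35, against 0.20 for all tested clones, and 19 of 62 exceeded 0.5 (30.6%, against 13.2%). EIF5 (0.84), EIF3M (0.78), EEF2K clone BF041020 (0.75), EIF4A2 (0.74) and EIF4B (0.73) were followed most closely. TARS2 (-0.28) and VARS1 clone BF046553 (-0.26) had the lowest values, so their courses over days rest on arrays that did not repeat one another. In all, 11 of 62 members lay below 0 (17.7%, against 22.2% of all tested clones). FARS2 (-0.02), HARS2 (-0.02) and WARS2 (-0.07) were among them, and EIF2D was at 0.006, so the same limit holds for their courses. For synthetases the median was 0.21 and for initiation factors 0.41. These are descriptions over 30 cow-days of 5 cows.

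Different clones of the same gene gave a second check. Among 15 pairs in which both clones were tested, the correlation over cow-days ran from -0.44 to 0.89 with a median of 0.35, and 7 pairs exceeded 0.5. The pairs of EEF2 (AW464117 with BM365134, 0.89), EEF2K (0.88), EIF2S2 (0.83), EIF4H (0.81), EIF4A1 (0.73), MARS1 (0.66) and NARS1 (0.53) moved together. Values were lower for VARS1 (0.29) and for EEF2 clone AW462715 with the other EEF2 clones (0.35 and 0.05). Pairs of EIF1 (-0.44), EIF3I (-0.42), EIF4G3 (-0.30), KARS1 (-0.12) and EIF2AK4 (-0.10) did not. The EIF4G3 clones also lay 1.499 apart in level. For those 5 genes no single course over days can be given.

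Over the 7 days, no translation factor or synthetase passed the test. The moderated F test of limma, with a term for cow and Benjamini-Hochberg adjustment over 5280 clones, called 0 of 62 members, where 0.0189% of all tested clones were called. At an unadjusted p under 0.05 it counted 1 of 62, where 5.21% of all clones were. That member was EIF4H clone BF039522 (F = 2.61, adjusted p = 0.945), a factor that stimulates the EIF4A helicase. The median F of the members was 0.82, and that of all clones 0.91; for elongation factors it was 1.18 and for synthetases 0.76. In each of 5 planned contrasts the limma test also called 0 of 62 members. The median member had an unadjusted 95% interval of ± 0.49 around its contrast, or ± 0.52 where day 49 enters.

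Class by class, the values of the cows were compared as the median deviation of the clones from their own means. On the days with 5 cows, initiation factors lay at -0.01 ± 0.15 (SD) on day -65, at 0.14 ± 0.19 on day -30, at -0.10 ± 0.30 on day 1 and at 0.13 ± 0.10 on day 28. With 3 cows each, days -14 and 14 gave -0.14 ± 0.26 and 0.08 ± 0.19, and the 4 cows of day 49 gave -0.05 ± 0.11. On day 28 all 5 cows were above 0, from 0.01 to 0.23. On day 1, 4 cows were below 0, and cow 7186 stood at 0.37, so the days overlapped.

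Elongation factors had a similar order of days. They lay at 0.02 ± 0.18 on day -65, 0.09 ± 0.19 on day -30, -0.04 ± 0.49 on day -14, -0.12 ± 0.26 on day 1, 0.02 ± 0.26 on day 14, 0.15 ± 0.21 on day 28 and -0.16 ± 0.07 on day 49, with the same cows per day. On day 49 all 4 cows were below 0, from -0.25 to -0.09, and overlapped the range of day 28, from -0.15 to 0.39. Cow 6983 was lowest on days -14 and 1, at -0.51 and -0.42.

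The day means of synthetases spanned the narrowest range of the 3 classes. They were -0.03 ± 0.07 on day -65, 0.11 ± 0.16 on day -30, -0.12 ± 0.17 on day -14, 0.02 ± 0.15 on day 1, 0.06 ± 0.20 on day 14, 0.06 ± 0.17 on day 28 and 0.05 ± 0.08 on day 49. On day 1, where initiation and elongation factors were below 0 in 4 of 5 cows each, synthetases were below 0 in 3 of 5. Taken apart, the cytosolic synthetases were at -0.09 ± 0.32 on day 1 and below 0 in 3 of 5 cows. The mitochondrial synthetases were at 0.07 ± 0.10 and below 0 in 0 of 5. The difference between the classes was not tested. For all tested clones the day means stayed between -0.04 and 0.04.

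**Figure D2:**
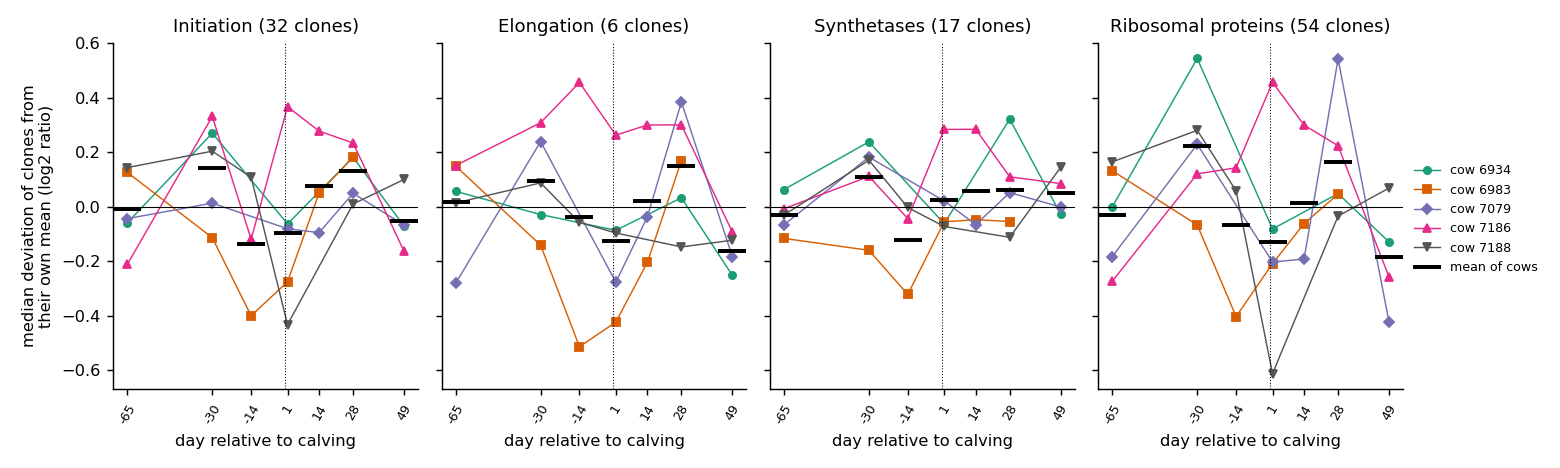
Median deviation of the clones of a class from their own means (log2 ratio) in each cow (coloured points joined by lines) and the mean of the cows (black bars) by day relative to calving; ribosomal protein clones are shown for comparison. The cows cross one another on most days, and on day 1 cow 7186 stands above the others in every panel, at 0.37 for initiation and 0.28 for synthetases.

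The step across calving was read from day 1 against day -30, the nearest days with all 5 cows. Of 62 members, 47 had a lower ratio on day 1, where 57.1% of all tested clones did. Higher on day 1 were 15 members, where 42.9% of all clones were. The lower ones were 24 of 32 initiation clones and 6 of 6 elongation clones, which named 4 genes. With them were 2 of 2 termination clones, 11 of 17 synthetase clones and 4 of 5 kinase clones. The median differences were -0.19 for initiation, -0.31 for elongation, -0.07 for synthetases and -0.06 for all clones. Of the synthetases, 8 of 11 cytosolic clones were lower (median -0.19) and 3 of 6 mitochondrial ones (median -0.04). By cow, the cytosolic median was lower in 4 of 5 and the mitochondrial median in 3 of 5. The median correlation between exchanged arrays was 0.32 for cytosolic and -0.02 for mitochondrial clones. Within initiation, 8 of 10 EIF3 clones and 8 of 9 EIF4 clones were lower (medians -0.28 and -0.39), but only 3 of 7 for EIF2 and EIF2B (median 0.11). Ribosomal protein clones were lower in 51 of 54 cases, with a median of -0.36.

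The split depended on the scale, the dye and the cow. Without centring, 37 of 62 members were lower, and the median of all clones moved from -0.06 to 0.07, so that only 41.3% of them were. On arrays with liver in Cy5 alone 32 of 62 members were lower, against 53.5% of all clones; on those with liver in Cy3, 49 were, against 67.0%. Without the cow-days whose arrays did not oppose, 46 were, against 57.7%. On the Cy5 arrays the medians were 0.019 for initiation and -0.094 for elongation, so the sign of initiation turned. Without cow 7188 the medians were -0.085 for initiation and -0.19 for elongation, without cow 7186 initiation was at -0.29, and synthetases lay between -0.15 and -0.073 with 1 cow left out. By cow, the median difference of initiation factors was -0.66 in 7188, -0.38 in 6934, -0.12 in 7079, 0.01 in 6983 and 0.21 in 7186. Elongation factors were lower in 4 of 5 cows, from -0.50 to -0.09, and at 0.04 in 7186. Kupffer clones were lower 12 of 12 times (median -0.54), stellate clones 7 of 7 (median -0.72) and hepatocyte clones 4 of 6 (median -0.41) in the same contrast, and their part in it was not tested.

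At an unadjusted p under 0.05 the day 1 contrast held 4 of 62 members, where 8.37% of all clones were, and 0.0189% passed adjustment. All 4 were initiation clones by symbol, and 3 had an EIF4 symbol, EIF4A3 among them. EIF4H clone BF039522 stood on day -30 at 0.60, -0.78, 0.36, 0.68 and 0.05 in cows 6934, 6983, 7079, 7186 and 7188, and on day 1 at -0.90, -1.13, -0.41, 0.60 and -0.88 in the same order. It was lower on day 1 in each of the 5 cows, by least in 7186, which remained high on both days, so the days overlapped. The estimate was -0.72 ± 0.25 (SE, adjusted p = 0.439 with limma), and it was -0.75 on the arrays with liver in Cy3 and -0.70 on those with liver in Cy5. The other EIF4H clone, AW462423, gave -0.25 ± 0.22 and was lower in 4 of 5 cows.

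EIF4B, which like EIF4H aids the EIF4A helicase, stood at 0.78, -0.15, 0.20, 0.96 and 0.26 on day -30 and at -0.37, -1.62, -0.52, 1.28 and -1.74 on day 1, in the same order of cows. It was lower in 4 cows and higher in 7186. The estimate was -1.004 ± 0.439 (SE, adjusted p = 0.577), the lowest among the members. EIF3CL, which names a core subunit of EIF3, was lower in 5 of 5 cows, at -0.48 ± 0.23 (adjusted p = 0.590). EIF4A3, the helicase of the exon junction complex, was at -0.39 ± 0.18 (adjusted p = 0.585), but its estimate came from arrays with liver in Cy3 (-0.77) and was -0.01 on the others, and it was -0.20 without cow 6934. The helicases EIF4A2 and EIF4A1 had estimates of -0.87 ± 0.52, and of -0.42 ± 0.24 and -0.38 ± 0.25 on the 2 EIF4A1 clones.

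Elongation factors, synthetases and kinases had no member at that unadjusted threshold. The EEF2 clones gave -0.53 ± 0.26 (SE, lower in 5 of 5 cows), -0.37 ± 0.19 (4 of 5) and -0.19 ± 0.13 (3 of 5), and EEF1D gave -0.01 ± 0.15. NARS1 was at -0.63 ± 0.31 (4 of 5) and -0.29 ± 0.22 (5 of 5), and WARS1 at -0.49 ± 0.39 (4 of 5). At the other end FARS2 had the highest estimate of any member, 0.57 ± 0.31 (higher in 4 of 5 cows), though its exchanged arrays correlated at only -0.02. MARS1 lay at 0.32 ± 0.25 and 0.15 ± 0.25. The synthetase range, from NARS1 to FARS2, therefore spanned 0. EEF2K was at -0.60 ± 0.35 and -0.37 ± 0.38, EIF2AK1 at 0.09 ± 0.18, and EIF2AK4 at -0.38 ± 0.25 and -0.15 ± 0.15. EIF2S1 lay at 0.13 ± 0.14, EIF5A at -0.26 ± 0.25, ETF1 at -0.17 ± 0.19 and GSPT1 at -0.13 ± 0.24, none with an interval that left out 0.

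**Figure D3:**
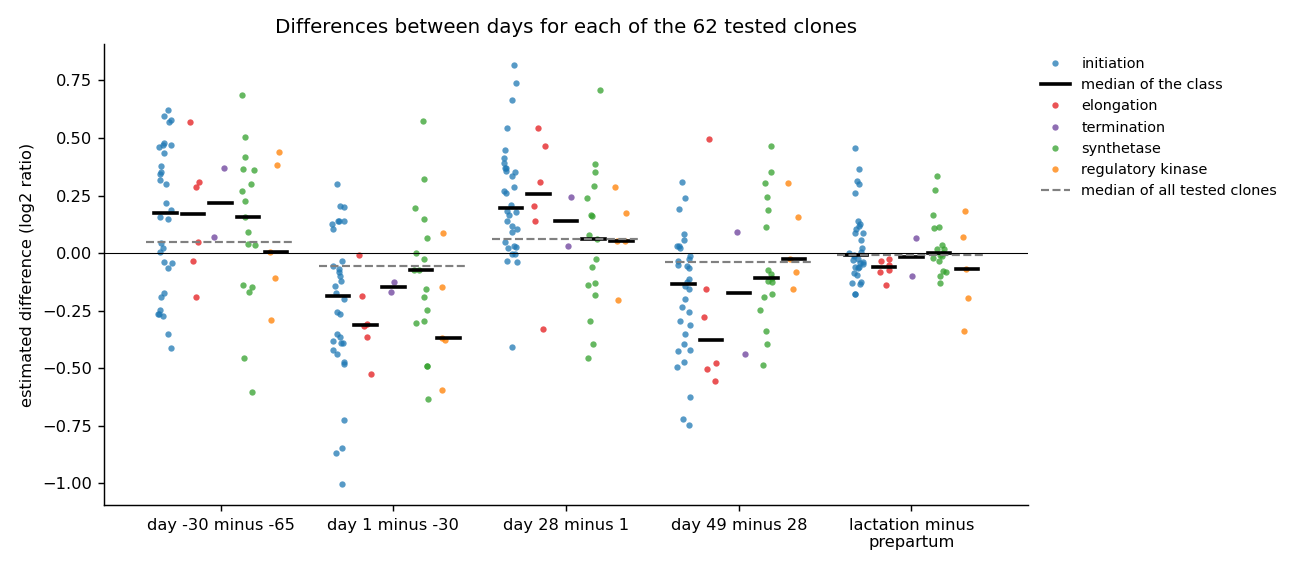
Estimated difference between days (log2 ratio) for each of the 62 tested clones (points) by role, with the median of each class (black bars) and of all 5280 tested clones (grey dashes). In the day 1 contrast the elongation clones lie at or below -0.01 with a median of -0.31, and the synthetases spread around -0.07; adjoining contrasts share the samples of a day.

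From day 1 to day 28 the estimates lay on the other side. This contrast shares the day 1 samples with the previous one, so its signs are no independent result. Of 62 members 47 were higher on day 28, where 61.8% of all tested clones were. These clones were 27 of 32 for initiation, 5 of 6 for elongation and 2 of 2 for termination. Of synthetase clones 9 of 17 were higher, and of kinase clones 4 of 5. The other 15 members were lower, where 38.2% of all clones were. All 9 EIF4 clones and 9 of 10 EIF3 clones were higher (medians 0.36 and 0.34). Lower were 4 of 6 mitochondrial and 4 of 11 cytosolic synthetases. With arrays scaled to the same spread 23 of 62 were lower, where 44.0% of all clones were. On arrays with liver in Cy5 alone 30 were lower, a share of 48.4% beside 50.9% of all clones, and the median of elongation factors was -0.019. Without the cow-days whose arrays did not oppose 20 were lower, where 39.8% of all clones were. With all 5 cows in the fit, the median estimate over clones was 0.20 for initiation, 0.26 for elongation and 0.06 for synthetases. It was 0.38 for initiation without cow 7186, 0.14 for elongation without 7079, and -0.054 for synthetases without 6934. By cow, the class median was higher on day 28 in 4 of 5 cows for initiation and 5 of 5 for elongation. For synthetases it was higher in 2 cows and lower in 3. Kupffer clones were higher 9 of 12 times and stellate clones 6 of 7 times, and their part was not tested.

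At an unadjusted p under 0.05 this contrast held 6 of 62 members, where 7.82% of all clones were, and 0% passed adjustment. EIF4H clone BF039522 stood on day 28 at 0.57, -0.01, 0.22, 0.68 and -0.48 in cows 6934, 6983, 7079, 7186 and 7188, above its day 1 value in each cow. Its estimate was 0.74 ± 0.25 (SE, adjusted p = 0.527), with 0.78 and 0.70 in the 2 dye orientations. Clone AW462423 gave 0.21 ± 0.22 and was higher in 4 of 5 cows. EIF3H, an EIF3 subunit, was higher in 5 of 5 cows by 0.45 ± 0.21 (adjusted p = 0.631).

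EEF2, the translocase, was the elongation factor with the clearest difference. Clone BM365134 stood on day 1 at -0.08, -0.85, -0.43, 0.06 and -0.14, and on day 28 at -0.06, 0.41, 0.62, 0.29 and 0.00, in the same order of cows. All 5 cows were higher on day 28, by little in 6934 and 7188 and by over 1 log2 unit in 6983 and 7079. The estimate was 0.54 ± 0.19 (SE, adjusted p = 0.543), and 0.45 without the cow-days whose arrays did not oppose. The other EEF2 clones gave 0.31 ± 0.13 (higher in 5 of 5 cows, adjusted p = 0.605) and 0.47 ± 0.26 (3 of 5 cows). The first of these rested on arrays with liver in Cy3, at 0.56, and was 0.05 on those with liver in Cy5.

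Synthetases went both ways. NARS1 clone BF039212 stood on day 1 at -1.19, -0.95, -0.64, 0.39 and -2.10 and on day 28 at -0.23, -0.39, -0.17, 0.45 and -0.61. All 5 cows were higher, by most in 7188 and by least in 7186, with overlapping days, and the estimate was 0.71 ± 0.31 (SE, adjusted p = 0.613). WARS2, the mitochondrial tryptophan enzyme, was lower on day 28 in 5 of 5 cows, by an estimate of -0.45 ± 0.20 (adjusted p = 0.613). It was -0.73 on arrays with liver in Cy3 and -0.18 on the others, and its means in the 2 orientations were 0.51 and -0.61. Its cytosolic counterpart WARS1 was at 0.16 ± 0.39.

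**Figure D4:**
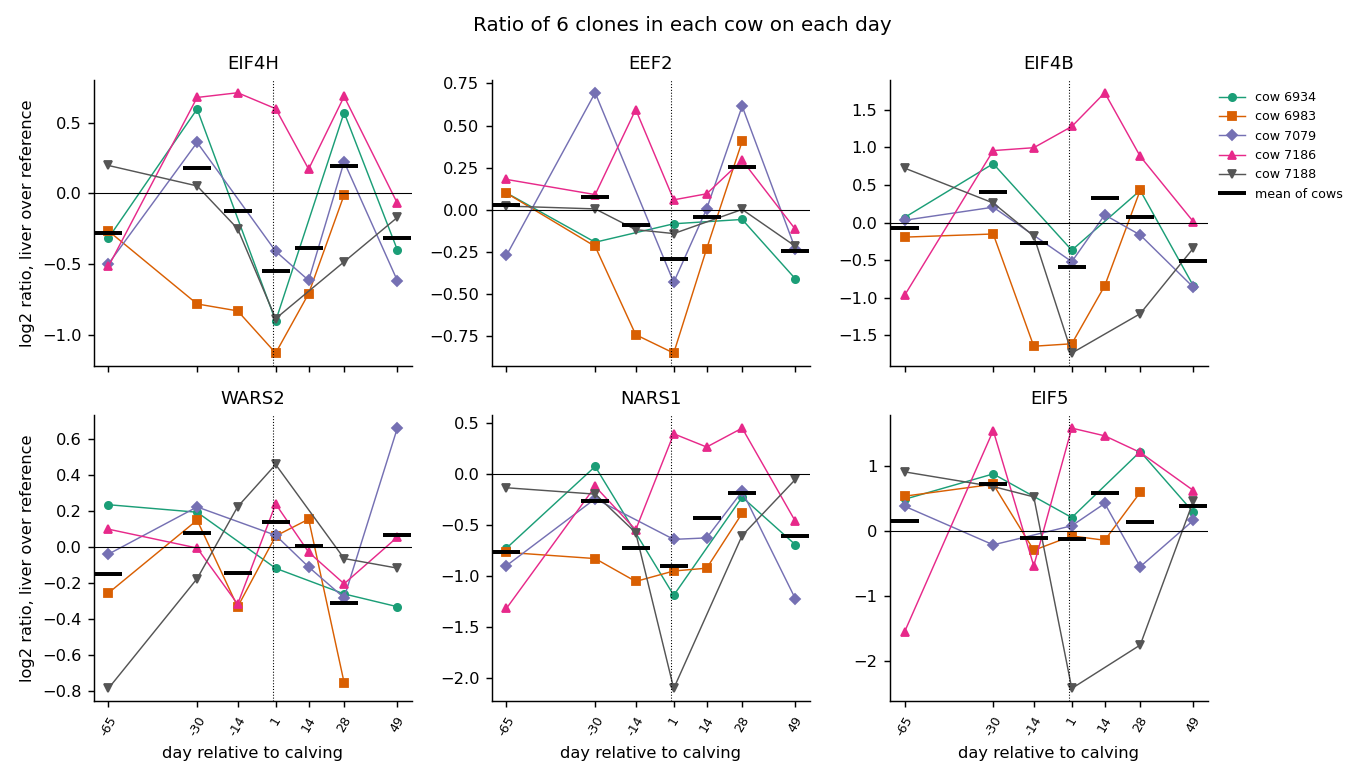
Log2 ratio of liver over reference by day relative to calving for EIF4H (clone BF039522), EEF2 (clone BM365134), EIF4B, WARS2, NARS1 (clone BF039212) and EIF5 (clone BF042477) in each cow (coloured points joined by lines), with the mean of the cows (black bars); vertical scales differ between panels. EIF4H is lower on day 1 than on days -30 and 28 in all 5 cows, while EIF5 spans from -2.42 to 1.58 on day 1.

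Later in lactation, 44 of 62 members were lower on day 49 than on day 28, where 56.5% of all tested clones were. These were 24 of 32 initiation clones, 5 of 6 elongation clones and 11 of 17 synthetase clones. The class medians over clones were -0.13, -0.38 and -0.11, in that order. Without centring 51 were lower, and 74.6% of all clones, whose median moved from -0.04 to -0.16; with arrays scaled to the same spread 37 were, beside 54.5% of all clones. On arrays with liver in Cy5 alone 32 were lower, a share of 51.6% beside 48.8% of all clones, and the median of initiation factors was 0.011. Without the cow-days whose arrays did not oppose, which include 2 of the 4 cows of day 49, 40 were, beside 49.7% of all clones. The median of synthetases was 0.019 without cow 7079, 0.004 without 7186 and -0.22 without 7188, and that of initiation factors -0.064 without 7186 and -0.33 without 7188. Kupffer clones were lower 11 of 12 times (median -0.56), stellate clones 6 of 7 (median -0.23) and hepatocyte clones 4 of 6 (median -0.33), and their part was not tested. In cow 7188 initiation factors were higher on day 49, by a median of 0.12.

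At an unadjusted p under 0.05 there were 5 of 62 members, where 7.23% of all clones were, and 0% passed adjustment. EEF2 clone BM365134 stood on day 49 at -0.41, -0.23, -0.12 and -0.22 in cows 6934, 7079, 7186 and 7188, lower than on day 28 in each. Its estimate was -0.56 ± 0.21 (SE, adjusted p = 0.583). EIF4H clone BF039522 was at -0.63 ± 0.27 (lower in 3 of 4 cows, adjusted p = 0.662). EIF3K, a small EIF3 subunit, was at -0.47 ± 0.22 (4 of 4 cows), EIF1AD at -0.42 ± 0.19 (4 of 4) and EIF2D, which can deliver initiator tRNA apart from EIF2, at -0.72 ± 0.34 (3 of 3), with adjusted p from 0.675 to 0.682. EIF3K was at -0.80 on arrays with liver in Cy3 and at -0.15 on the others, and EIF2D at -0.33 and -0.74. Without the cow-days whose arrays did not oppose they were at -0.83 and -1.16. EEF1E1 and EEF1B2 had estimates of 0.50 ± 0.38 and -0.48 ± 0.34.

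Within the dry period, 42 of 62 members were higher on day -30 than on day -65, where 55.1% of all tested clones were. The other 20 were lower, where 44.9% of all clones were. The higher ones comprised 21 of 32 initiation clones, 4 of 6 elongation clones and 12 of 17 synthetase clones. The class medians over clones were 0.17, 0.17 and 0.16, in that order. By cow, the class median was higher in 4 of 5 cows for initiation, 4 of 5 for elongation and 2 of 5 for synthetases. The highest synthetase median of a cow was 0.14, in 7188. On arrays with liver in Cy5 alone 35 members were lower, beside 51.5% of all clones, and on those with liver in Cy3, 14 were, beside 43.2%. On the Cy5 arrays the medians were -0.053 for initiation, -0.14 for elongation and -0.072 for synthetases. Without cow 7186 they were 0.050, 0.074 and 0.027, without 6983 initiation was at 0.35 and elongation at 0.30, and without 7079 elongation was at -0.0077. At an unadjusted p under 0.05 there were 2 of 62 members, where 9.87% of all clones were, and 0% passed adjustment. HARS2, the mitochondrial histidine enzyme, was at 0.37 ± 0.15 (SE, adjusted p = 0.493) but higher in only 3 of 5 cows, and cow 7186 went from -0.37 to 0.80; without that cow the estimate was 0.16. EIF2B1, a regulatory subunit of EIF2B, was at -0.35 ± 0.15 (lower in 4 of 5 cows, adjusted p = 0.493), and at -0.19 with array weights. WARS1 was higher in 5 of 5 cows, at 0.69 ± 0.39. Stellate clones were higher 7 of 7 times in this contrast (median 0.59) and Kupffer clones 10 of 12 times, while hepatocyte clones were lower 4 of 6 times (median -0.18), and their part was not tested.

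Lactation as a whole (days 14, 28 and 49) was set against the days before calving (-65, -30 and -14). Here the members divided into 27 higher, where 47.8% of all tested clones were, and 35 lower, where 52.2% were, with medians of -0.01 for initiation, -0.06 for elongation and 0.00 for synthetases. The 6 elongation clones were all lower, by 0.02 to 0.14. The sign depended on the setting. Without centring the median of all clones moved to 0.14, only 15.3% of them were lower, 58 of 62 members were higher and the median of elongation factors was 0.08. With array weights 2 of the 6 elongation clones were lower, and 24 of 62 members. At an unadjusted p under 0.05 limma counted 0 of 62 members, where 3.86% of all clones were, and 0% passed adjustment. The closest were the 2 clones of EIF2AK4, at -0.34 ± 0.17 (SE, lower in 5 of 5 cows) and -0.19 ± 0.10 (4 of 5), both with an adjusted p of 1.00. Those clones did not track each other over cow-days. EEF2K was at 0.18 ± 0.25 and 0.07 ± 0.23, EIF2S1 at 0.00 ± 0.09, EIF5A at -0.18 ± 0.17, GSPT1 at 0.06 ± 0.16 and ETF1 at -0.10 ± 0.12. Kupffer clones were lower 12 of 12 times (median -0.47), hepatocyte clones lower 5 of 6 times (median -0.35) and stellate clones higher 7 of 7 times, and their part was not tested.

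To see which members moved together, clones were correlated between arrays of opposite dye orientation. A clone's ratios with liver in Cy3 were set against those of other clones with liver in Cy5, and the reverse. No array was shared in this way. Over 30 cow-days and 60 completely measured members, 1755 pairs of different genes had a median correlation of 0.01, and 85 pairs exceeded 0.5. The share of such pairs among all tested clones was not counted, so whether 85 is many or few cannot be said. Pairs share the RNA of a cow-day, and cow-days share cows, so these values are descriptions.

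A group of 14 clones for 12 genes, those with at least 7 such partners, crossed the roles: EIF5, EIF3M, EIF3A, EIF4A2, EIF4B, EIF4H, both EIF2S2 clones, EEF1B2, GSPT1, IARS2, NARS1 and both EEF2K clones. The group was picked for its correlations, which are therefore not evidence for it. The closest pairs were EIF3M with EIF5 (0.77), IARS2 with EIF5 (0.74) and EIF4A2 with EIF5 (0.74). EIF5 correlated above 0.5 with 10.9% of the 4965 other completely measured clones and EIF3M with 9.06%, the highest shares in the group, and GSPT1 with 1.85%, the lowest. The group's mean deviation correlated over the 30 cow-days at 0.70 with that of 54 ribosomal protein clones. It correlated at 0.45 with 6 hepatocyte clones, at 0.46 with 7 stellate clones and at 0.25 with 3 endothelial clones. With 12 Kupffer clones the value was 0.11, with 2 lymphocyte and neutrophil clones -0.09 and with 2 bile duct clones -0.39. These means joined both dye orientations, so here both sides shared every array and its noise. They cannot be set beside the pair values above, and the same value for all tested clones was not computed.

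Its swings sat in a few cow-days. The mean deviation of the group was 0.97, 0.96, 0.79 and 0.73 in cow 7186 on days -30, 1, 14 and 28 and -1.07 in the same cow on day -65. In cow 7188 it was -1.35 on day 1 and -0.84 on day 28, after 0.38 and 0.37 on days -65 and -30. Cow 7079 stayed between -0.45 and 0.00. Day 1 thus held both the lowest value and one of the highest, and of the sum of squares 13.9% lay between days after cow, 19.4% between cows and 66.7% in neither. EIF5 itself stood at 1.58 in 7186 and -2.42 in 7188 on day 1, with 0.20, -0.08 and 0.08 in the other cows.

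A second, smaller group held the clones with at least 1 partner above 0.5 and a median correlation below 0 with members of other genes. EIF1 clone AW465374, EIF3F, EIF3I clone BF046028, EIF6, which keeps the large ribosomal subunit apart from the small one, and EIF4G3 clone AW462767 had a median correlation of 0.49 with one another and of -0.35 with the first group. All 5 were split by dye, with means from -0.45 to -0.31 with liver in Cy3 and from 0.44 to 0.49 with liver in Cy5. This group differed by animal: cow 6983 averaged 0.44 ± 0.26 (SD over 6 days) and was above 0 on every day, while cow 7186 averaged -0.39 ± 0.38 (7 days), and 63.7% of its sum of squares lay between cows against 4.24% between days. Both groups were chosen after their values were seen, and the rule of the second favours values below 0 against the first. The 0.49 and the -0.35 are therefore not evidence for the group or for an opposition. Without the cow-days whose arrays did not oppose, the median correlations were 0.56, 0.56 and -0.34.

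**Figure D5:**
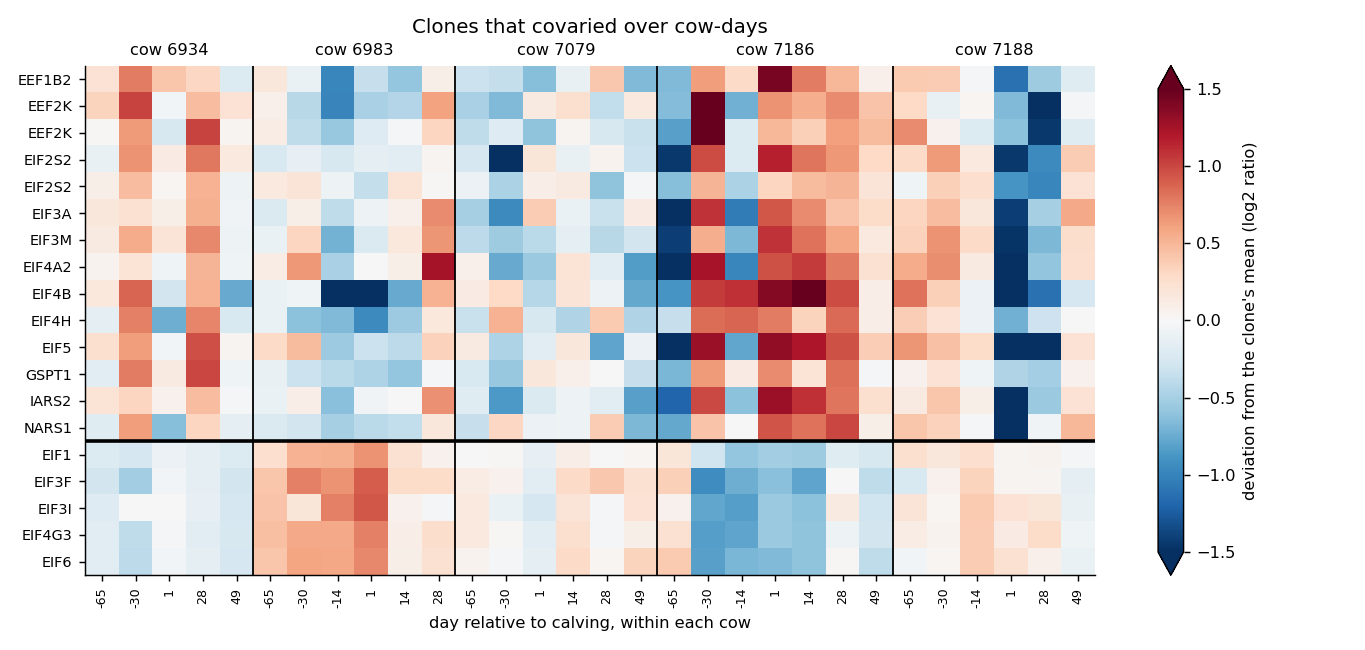
Deviation of each clone from its own mean (log2 ratio, colour scale ending at -1.5 and 1.5) in 30 cow-days, ordered by cow and day, for the 14 clones of the first group (above the thick line) and the 5 clones of the second (below it). The first group is high in most samples of cow 7186 and low in cow 7188 on days 1 and 28, and the second is high throughout cow 6983.

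Other genes of translation control, outside the symbols that define the members, were taken from lists, and the values named are the extremes of a contrast over all the lists. Partners of the translation machinery held 16 tested clones, of which 13 were lower on day 1 than on day -30, beside 57.1% of all clones, and 11 higher on day 28 than on day 1, beside 61.8%. DAP clone BF044112 gave -0.84 ± 0.33 (SE, adjusted p = 0.525) and 0.76 ± 0.33 in the respective contrasts, where its other clone gave 0.17 ± 0.12 and -0.03 ± 0.12. RACK1, a protein of the small ribosomal subunit, was at -1.05 ± 0.36 (adjusted p = 0.583) on clone BM362525 and -0.83 ± 0.40 on clone BF044344 for day 49 against day 28, and at -0.27 ± 0.17 on clone BF043203. Growth control through mTORC1 held 18 clones, 12 lower on day 1 than on day -30 and 14 higher on day 28 than on day 1, to be read beside the same shares of all clones. TSC1, an inhibitor of that pathway, had the lowest estimate of the first contrast, at -1.01 ± 0.55, and the highest from day -65 to day -30, at 0.77 ± 0.51. SESN2, a stress-induced inhibitor of mTORC1, was at 0.47 ± 0.43 for day 1 against day -30, at -0.95 ± 0.43 for day 28 against day 1 and at 0.80 ± 0.46 for day 49 against day 28. UPF2, of nonsense-mediated decay, was at 0.45 ± 0.54 on day 1 against day -30.

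Targets of the integrated stress response are the genes induced when EIF2 is phosphorylated. On day 1 against day -30, 9 of their clones were higher and 8 lower, where 42.9% of all tested clones were higher. In lactation against prepartum 8 were higher and 9 lower, where 47.8% of all tested clones were higher. MTHFD2, a mitochondrial one-carbon enzyme on this list, had the highest estimate of the latter contrast in any list, at 0.43 ± 0.15 (adjusted p = 1.00). DDIT4, a stress-induced gene that restrains mTORC1, had the lowest estimate in any list, at -0.50 ± 0.22 on clone BM366955, and gave -0.67 ± 0.46 on clone AW463277 for day 28 against day 1. PDCD4, an inhibitor of EIF4A, was at 0.39 ± 0.27 and 0.16 ± 0.23 on its 2 clones and TSC1 at -0.43 ± 0.34 for lactation. MTRF1L, a mitochondrial release factor, was at 0.80 ± 0.44 on one clone and 0.11 ± 0.17 on another from day 1 to day 28, TSC2 at 0.61 ± 0.31 from day 28 to day 49 and PAIP2, which binds PABPC1, at 0.70 ± 0.55 from day -65 to day -30. In that last contrast the synthetase-related FARSA and DALRD3 were both at -0.40, ± 0.18 and ± 0.16. Multisynthetase partners were higher on day 1 than on day -30 in 4 of 5 clones (median 0.10). Mitochondrial translation factors were higher in 2 of 3 (median 0.09) and release and rescue factors in 2 of 3 (median 0.03). Of all tested clones 42.9% were higher, and these small sets were not tested against that share. No clone of these lists passed the adjusted test in a contrast.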

How the data were processed

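Two-colour cDNA arrays of bovine liver against reference RNA were used. Per the labels, images came from a Scanarray 4000 scanner and were quantified with GenePix 4.0. The authors deposited log2 ratios of the 2 channels per spot; how background and normalization were handled before deposit is not given in the labels. Each array was centred on its median, and ratios were reversed in sign where the liver carried Cy3. The 2 spots of a clone (mean correlation 0.73) and the exchanged pair were averaged, with both arrays required. Symbols came from the platform's probe table, updated through gene identifiers for 5591 clones; 95 clones naming several genes were tested but not named. The smaller table of 8 arrays entered only an alternative.

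limma 3.58.1 in R 4.3.3 fitted day and a fixed block for cow (19 residual degrees of freedom) to 5280 clones, with Benjamini-Hochberg adjustment at 0.05, 2-sided. The block rests on cow numbers in the labels: deviations correlated at 0.14 on average between days of a cow and at -0.03 between cows. P-values measure the spread over cow-days, which holds array noise, and precision is limited by how many arrays there are. On simulated data for day 28 against day 1 over 5280 clones, 66% of log2 changes of 1 and 99% of 2 were recovered, with 4 false calls.

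Named with values were members with an unadjusted p under 0.05, the 3 highest and 3 lowest ratios of a class, genes with several clones, a fixed set of translation genes, and of other pathway genes the 2 highest and 2 lowest estimates of a contrast and those with an unadjusted p under 0.01. The members and lists were chosen with earlier results of these data known. No sequences or coordinates were used.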

Additional observations from a re-analysis of the deposited data

Results flagged for a closer look

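One class value stood apart from its group. The median deviation of the synthetases on day 1 was 0.28 in cow 7186, where the nearest other cow was at 0.02 and the lowest at -0.07, so the gap was 0.74 of the range of the 5 cows. Among 90 groups of 4 to 5 cows looked at in this way, 1 was marked, and chance marks about 5% of such groups.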

How the results depend on the processing

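No member passed the adjusted test of limma in any of 101 recounts under up to 17 alternatives, and every member contrast given with an unadjusted p under 0.05 kept its sign. The paired analysis was the main one: with no replicate block for cow, 0 members passed in the day effect and in each contrast. Class medians with no test moved as follows, and the cause was not tested. For day -30 against day -65, arrays with liver in Cy3 alone gave 0.40 for initiation, 0.49 for elongation and 0.24 for synthetases; those with liver in Cy5 alone gave -0.071 for all members, -0.14 for elongation and -0.072 for synthetases, and leaving out 1 cow put synthetases between 0.027 (without 7186) and 0.19, elongation between -0.0077 (without 7079) and 0.30, initiation between 0.050 and 0.35 and all members between 0.046 and 0.28. For day 1 against day -30, elongation was -0.094 with liver in Cy5 alone and synthetases 0.051 without centring. For day 28 against day 1, all members were at 0.35 with liver in Cy3 alone. For day 49 against day 28, elongation was -0.14 with liver in Cy5 alone. For lactation against prepartum, omitting centring gave 0.13 for all members, 0.14 for initiation, 0.082 for elongation and 0.15 for synthetases, which were at 0.077 with liver in Cy3 alone and 0.089 with array weights. The other 323 of 340 class medians moved by less than 1 SD of the cows' medians, a wide margin that includes turned signs: with liver in Cy5 alone, initiation was 0.019 for day 1 against day -30 and 0.011 for day 49 against day 28, and elongation -0.019 for day 28 against day 1; with 1 cow left out, synthetases reached -0.054 for day 28 against day 1 and 0.019 for day 49 against day 28. No intensities were used, so signal over background is unknown, and days -14 and 14 rest on 3 cows. The recount of covariation and levels without 5 cow-days was chosen after seeing the data.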
